A study of Arabidopsis thaliana with 9 samples.

Results

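MIR163 (AT1G66725), which encodes the microRNA miR163, was followed in Arabidopsis thaliana seedlings with different amounts of the long noncoding RNA ASCO, together with 5 genes of the SABATH family of methyltransferases, namely PXMT1 (AT1G66700), AT1G66690, AT1G66720, FAMT (AT3G44860) and AT3G44870. They were taken by identifier from the 33602 gene models in the deposited counts, and all 6 were present. The set was chosen by measured values: it was proposed because of the difference of FAMT between genotypes in earlier results of the same pair counts. The differences of the 6 genes between genotypes are therefore given as a description. Where the fit across all genes called one of them, that call rests on the values used for the choice and supports nothing here.

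The series compared 3 genotypes with 3 libraries each, all from whole seedlings grown in vitro. The wild type is labelled WT, with no accession named in the labels used here, and its libraries are labelled 16 days old. The 35S-ASCO line is labelled as an overexpression and promoter trap mutant of AT1G67105, the gene of ASCO; 35S is the name of a viral promoter that is active in most plant cells. Its libraries are also labelled 16 days. The RNAi-ASCO line is labelled as a knock-down of AT1G67105 by RNA interference; its replicates 1 and 2 are labelled 4 days and its replicate 3 is labelled 16 days. The series design calls the 3 libraries of a genotype biological replicates, and the labels used here do not say how many independent transgenic lines stand behind each group. Line and labelled age cannot be told apart for replicates 1 and 2 of the RNAi-labelled group, and both comparisons with WT share its 3 libraries.

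Levels are read pairs of a gene scaled to a common library total (CPM) after TMM scaling between libraries, and the sum of counted pairs ranged from 27044702 to 126355312 per library. A floor of 3 pairs corresponds to between 0.0237 and 0.111 CPM, counting error only. The ASCO gene AT1G67105 stood at 4.22 ± 2.09 CPM in WT, 19.7 ± 3.01 CPM in the group labelled RNAi-ASCO and 3615 ± 67.1 CPM in the overexpressor (SD, n = 3). The level counted for the target thus went against the knock-down label. Counts per gene model do not separate pairs of the gene itself from any pairs of a transgene, so the knock-down was not tested. The libraries labelled RNAi-ASCO are called RNAi-labelled throughout. The labelled tissue was checked with the leaf genes RBCS1A and CAB1, which lay between 7577 and 11360 CPM in every library, and with PHT1;1, a phosphate transporter of roots, which lay between 30.6 and 56.6 CPM.

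SABATH enzymes transfer a methyl group from S-adenosylmethionine to small molecules, mostly to the carboxyl group of plant hormones and other acids, which makes many of the products volatile or less active. PXMT1 is known to methylate paraxanthine and FAMT to methylate farnesoic acid in vitro. Plant microRNAs guide an Argonaute protein to messenger RNAs of near-perfect complementarity, which are then cut, and miR163 is known in Arabidopsis as a regulator of PXMT1, FAMT and close relatives of them. The libraries were made from polyadenylated RNA, so the MIR163 counts stand for the primary transcript. The mature miR163 was not measured.

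The mature sequence is shown first because the 5 methyltransferase genes have in common a stretch that pairs with it. It was read from the TAIR10.1 sequence at chr1:24884359-24884382, plus strand, as placed by the RefSeq annotation; it is 24 bases long and its seed (bases 2 to 8) is in capitals:
miR163: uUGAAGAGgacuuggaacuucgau

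The best complementary stretch in the coding sequence of each gene follows, with every base that forms a Watson-Crick pair with miR163 in capitals and every G:U wobble in lower case. The sites are at chr1:24874307-24874329 (minus strand), chr1:24870402-24870424 (minus), chr1:24881604-24881626 (plus), chr3:16380056-16380078 (plus) and chr3:16382619-16382641 (plus) in TAIR10.1, in the order shown, each in exon 2 of 3:
PXMT1: AUCGAGUUCCAAGUCCUCUUCAA
AT1G66690: AUCGAGUUCCAAGUCCUCUUCAA
AT1G66720: AUCGAGUUCCAgGUCCUCUUCAA
FAMT: AUCGAGUUCCAAGUuuUCUUCAA
AT3G44870: AUCGAGUUCCAAGUuuUCUUCAA

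All 5 sites are 23 bases long, and in each of them 1 base of miR163 bulges out without a partner. It is placed here at position 20 counted from the 5′ end of miR163. The base before that position is also u, so either of them could be the bulge. PXMT1 and AT1G66690 pair with miR163 at all 23 site bases. AT1G66720 has 1 wobble, at position 12 of miR163, and pairs at 22 bases. FAMT and AT3G44870 share 1 site sequence with 2 wobbles, at position 8, inside the seed, and at position 9, next to it, and they pair at 21 bases. The transcripts of 27438 protein-coding genes were scanned in the same way, counting each wobble, mismatch or bulged base as 1 defect and allowing at most 1 bulge. No gene outside these 5 reached the 3 defects of FAMT and AT3G44870. Complementarity in the annotation is a description and does not show that a transcript was cut in these seedlings.

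MIR163 and 3 of the methyltransferase genes lie together on chromosome 1 of TAIR10.1. AT1G66690 (chr1:24869340-24870865) and PXMT1 (chr1:24873206-24874766) are on the minus strand, and AT1G66720 (chr1:24881180-24882480) and MIR163 (chr1:24884066-24884396) are on the plus strand. FAMT (chr3:16379571-16381434) and AT3G44870 (chr3:16382219-16383605) are neighbours on the plus strand of chromosome 3. In coding sequence PXMT1 was 91.7% identical to AT1G66690 and 80.4% to AT1G66720, and FAMT was 83.7% identical to AT3G44870, whereas PXMT1 and FAMT shared 65.1%. The jasmonate methyltransferase gene JMT, a more distant member of the family, was 48.9% identical to PXMT1 and 48.8% to FAMT. Each global alignment counts gaps as differences.

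The annotated MIR163 precursor, 331 bases long, itself resembles its targets. In a search of all 27438 genes, it matched transcripts of PXMT1, AT1G66690, AT1G66720 and AT3G44840, all SABATH genes, and no other at an E value of up to 1e-05. Bases 1 to 115 of the precursor matched PXMT1 on the same strand as the messenger RNA over 126 alignment columns (78.6% identity). Bases 161 to 260 matched the opposite strand of PXMT1 at 84% identity and bases 266 to 331 at 80.3%, and the last of these stretches holds the mature miR163. On the PXMT1 transcript these stretches correspond to bases 331 to 453, 448 to 542 and 331 to 395. The first and the last stretch of the precursor therefore match overlapping bases of PXMT1 in opposite orientation, the arrangement of an inverted repeat. FAMT and AT3G44870 gave no match at that E value.

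**Figure D1:**
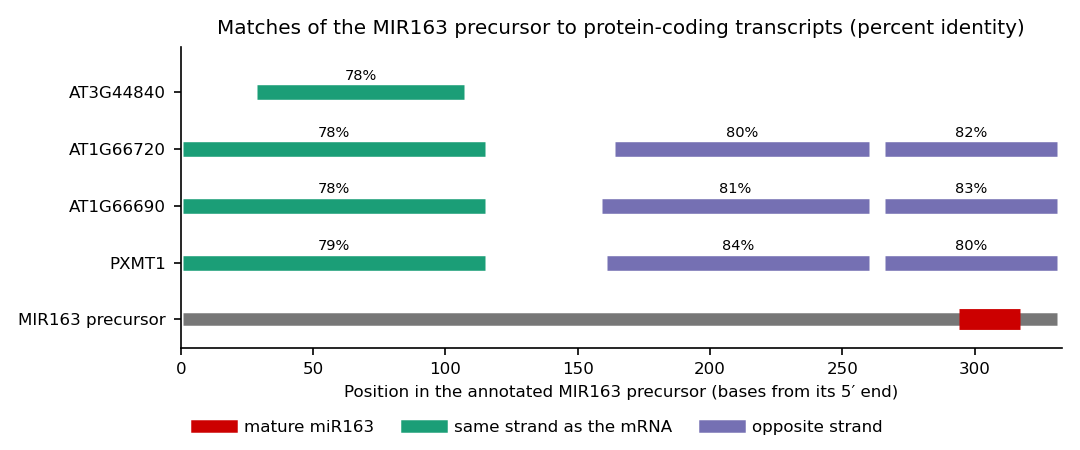
Stretches of the annotated MIR163 precursor that match protein-coding transcripts, drawn by position in the precursor in bases, with green bars for matches on the strand of the messenger RNA, violet bars for the opposite strand and a red bar for mature miR163; the number above each bar is the percent identity. The first 115 bases match PXMT1, AT1G66690 and AT1G66720 in one orientation, and the stretches from about base 160 to base 331 match them in the other.

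Close copies bear on the counts, because reads that aligned equally well to several places were removed by the authors. Exact 50-base stretches of the transcripts were looked up in the whole TAIR10.1 sequence at steps of 10 bases. Of the PXMT1 windows, 5 of 135 (3.7%) occurred elsewhere, in AT1G66690, and of the FAMT windows 2 of 162 (1.2%), in AT3G44870. The shares were 6 of 130 (4.6%) for AT1G66690, 2 of 107 (1.9%) for AT1G66720, 3 of 115 (2.6%) for AT3G44870 and 0 of 29 for the MIR163 precursor. These shares describe stretches whose reads fit more than 1 place equally well. Whether reads of one copy were counted for another was not tested, so the shares do not bound the uncertainty of the 5 methyltransferase genes. The MIR163 model in the files is 629 bases long, longer than the RefSeq precursor, and its extent is not given there.

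The genes differ widely in level. Compared per length, PXMT1 stood in WT at 9.36 ± 3.76 CPM per kilobase of gene model (SD, n = 3) and MIR163 at 8.62 ± 1.54, and their WT libraries overlapped. AT1G66690 followed at 0.549 ± 0.0792 CPM per kilobase and FAMT at 0.241 ± 0.146, both below PXMT1 and MIR163 in every WT library. AT1G66720 and AT3G44870 lay at or near the floor. Among the 24 SABATH genes of Arabidopsis, ordered by mean level per kilobase over the 9 libraries, PXMT1 ranked 5, FAMT 12, AT1G66690 13, AT3G44870 18 and AT1G66720 21. The rank of FAMT rests on 35S-ASCO, at 2.92 CPM per kilobase: in WT its mean lay below those of AT1G66690, AT1G68040 (0.548), JMT (0.359) and AT5G56300 (0.283), all of which rank after it over the 9 libraries. Among 178 annotated MIR genes, MIR163 ranked 9 on the same scale, with 3711 pairs in all. The models of these genes run from 64 to 1941 bases, and counted pairs had to lie on a single model. How model length affects this order was not tested, so it is not read as an order of primary transcripts.

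**Figure D2:**
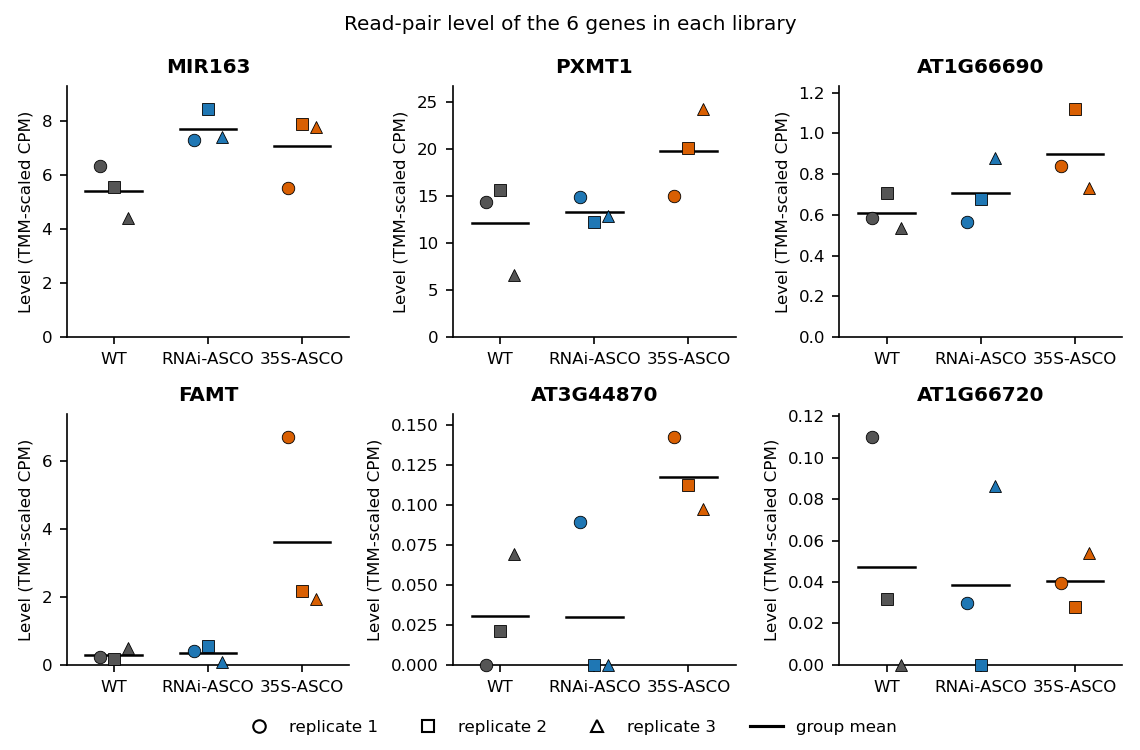
Level of each of the 6 genes in the 9 libraries in TMM-scaled CPM, with a separate linear axis from 0 for each gene; symbols give the replicate number and bars the group mean. FAMT lies between 1.94 and 6.70 CPM in 35S-ASCO and at or below 0.546 CPM in all other libraries, while MIR163 and PXMT1 differ less between the groups.

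MIR163, the source of the microRNA, had 172, 524 and 253 pairs in WT replicates 1, 2 and 3, or 6.32, 5.55 and 4.39 CPM. The RNAi-labelled libraries had 245, 387 and 430 pairs, or 7.28, 8.45 and 7.41 CPM. The 35S-ASCO libraries had 699, 281 and 720 pairs, or 5.53, 7.87 and 7.77 CPM. Each RNAi-labelled library was higher than each WT library, and the one labelled 16 days lay between the pair labelled 4 days. In 35S-ASCO, replicate 1 lay within the WT range and the other 2 libraries above it. Against WT the log2 fold change was 0.52 (SE 0.166) in the RNAi-labelled libraries and 0.38 (SE 0.164) in 35S-ASCO.

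PXMT1 is the most abundant of the 5 methyltransferase genes. It had 390, 1472 and 378 pairs in WT, or 14.3, 15.6 and 6.57 CPM, so that replicate 3 lay apart from the other 2. The RNAi-labelled libraries held 501, 561 and 744 pairs, or 14.9, 12.3 and 12.8 CPM, within the range of WT. The 35S-ASCO libraries had 1887, 716 and 2247 pairs, or 14.9, 20.1 and 24.2 CPM, and replicate 1 of them again lay within the WT range. The log2 fold change against WT was 0.13 (SE 0.285) in the RNAi-labelled libraries and 0.70 (SE 0.279) in 35S-ASCO. WT replicate 3 sets much of both: without it the values were -0.18 and 0.39.

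AT1G66690, the closest copy of PXMT1, was much lower. It had 16, 67 and 31 pairs in WT, or 0.588, 0.710 and 0.538 CPM. The RNAi-labelled libraries had 19, 31 and 51 pairs, or 0.565, 0.677 and 0.878 CPM, with the library labelled 16 days highest. The 35S-ASCO libraries had 106, 40 and 68 pairs, or 0.839, 1.12 and 0.733 CPM, all above the WT libraries, though the lowest exceeded the highest WT library by little. The log2 fold change against WT was 0.21 (SE 0.258) in the RNAi-labelled libraries and 0.50 (SE 0.247) in 35S-ASCO.

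FAMT, the farnesoic acid methyltransferase gene, had the largest log2 fold change of the 4 genes with enough pairs. In RNA from whole seedlings, a difference in the number of cells of a type and one in RNA per cell cannot be told apart. FAMT had 6, 16 and 29 pairs in WT, or 0.220, 0.170 and 0.504 CPM. The RNAi-labelled libraries had 14, 25 and 5 pairs, or 0.416, 0.546 and 0.0861 CPM, with the library labelled 16 days lowest. The 35S-ASCO libraries had 847, 77 and 180 pairs, or 6.70, 2.16 and 1.94 CPM. Every 35S-ASCO library lay above every other library, and within that group replicate 1 was 3.45 times the lowest. The ratio of the means was 12.1 against WT, from 0.298 ± 0.180 to 3.601 ± 2.69 CPM (SD, n = 3), with a log2 fold change of 3.63 (SE 0.673). Against the RNAi-labelled libraries, at 0.349 ± 0.237 CPM, the log2 fold change was 3.47 (SE 0.677). Those libraries overlapped WT (log2 fold change 0.17, SE 0.836), and with the pair labelled 4 days left out the value against WT was -1.76, from a single remaining library of 5 pairs.

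The size of the FAMT difference depends on single libraries. Without 35S-ASCO replicate 1 the log2 fold change against WT was 2.78, and without WT replicate 3 it was 4.31. In the fit across all genes FAMT was past the threshold (edgeR adjusted p under 0.05) with all 9 libraries; since the gene was chosen for this difference, that call is a description of the fit and no independent test. With single libraries left out in turn it was not past it in 6 of 9 fits, namely those without WT replicate 1 (log2 fold change 3.54), WT replicate 2 (3.21), RNAi-ASCO replicate 1 (3.63), RNAi-ASCO replicate 2 (3.63), 35S-ASCO replicate 1 (2.78) and 35S-ASCO replicate 2 (3.87). It was also not past it when only the 6 libraries compared were fitted (3.63) or when the pair labelled 4 days was left out (3.63). Against the RNAi-labelled libraries it was not past it without RNAi-ASCO replicate 1 (3.61), without RNAi-ASCO replicate 2 (4.05) or without both (5.38), where 1 RNAi-labelled library is left.

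AT3G44870, the neighbouring copy of FAMT, was close to the floor. It had 0, 2 and 4 pairs in WT, 3, 0 and 0 in the RNAi-labelled libraries, and 18, 4 and 9 in 35S-ASCO. The 35S-ASCO libraries, at 0.142, 0.112 and 0.0971 CPM, were the highest 3 of the 9, but all 9 libraries together held only 40 pairs and the gene did not pass the filter on low counts. In 35S-ASCO its pairs came to between 2.13% and 5.19% of those of FAMT. The share was 0%, 12.5% and 13.8% in WT and 21.4%, 0% and 0% in the RNAi-labelled libraries, each from 4 pairs or fewer. Whether reads from FAMT contributed to these few pairs was not tested. Its model overlaps that of ACD1, on the same strand, by 11 bases at its 3′ end.

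AT1G66720 held 3, 3 and 0 pairs in WT, 1, 0 and 5 in the RNAi-labelled libraries, and 5, 1 and 5 in 35S-ASCO. The groups overlapped, and no difference was detectable at this depth. AT1G66720 and AT3G44870 were the 2 genes of the 6 with too few pairs, leaving 4 that entered the fit.

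In the fit across 22719 genes, 11.8% passed the threshold in the RNAi-labelled group compared with WT (6.96% higher and 4.82% lower), and 0 of these 4 did (edgeR; at unadjusted p under 0.05, 6239 of all genes passed). MIR163 was past the threshold there with DESeq2, run as an alternative, and without 35S-ASCO replicate 1 (log2 fold change 0.53). In 35S-ASCO compared with WT 1.67% of genes passed (1.36% higher and 0.313% lower), and 1 of the 4, FAMT, did. Between the transgenic groups 6.75% passed (3.2% higher and 3.55% lower in 35S-ASCO), and again 1 of the 4, FAMT. By the plain criterion that 2 groups do not overlap, 32.4% of genes were separated in the RNAi-labelled group compared with WT (16.9% higher) and 1 of the 4 was (MIR163, higher). In 35S-ASCO compared with WT 21.9% of genes were separated (11.8% higher), and 2 of the 4 were (FAMT and AT1G66690, both higher). Between the transgenic groups 31.4% were separated (15.6% higher in 35S-ASCO). Among the 4, PXMT1 (log2 fold change 0.57, SE 0.279) and FAMT were separated there, both higher in 35S-ASCO. As the genes were chosen with these comparisons known and only 4 were fitted, nothing is read from these shares.

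**Figure D3:**
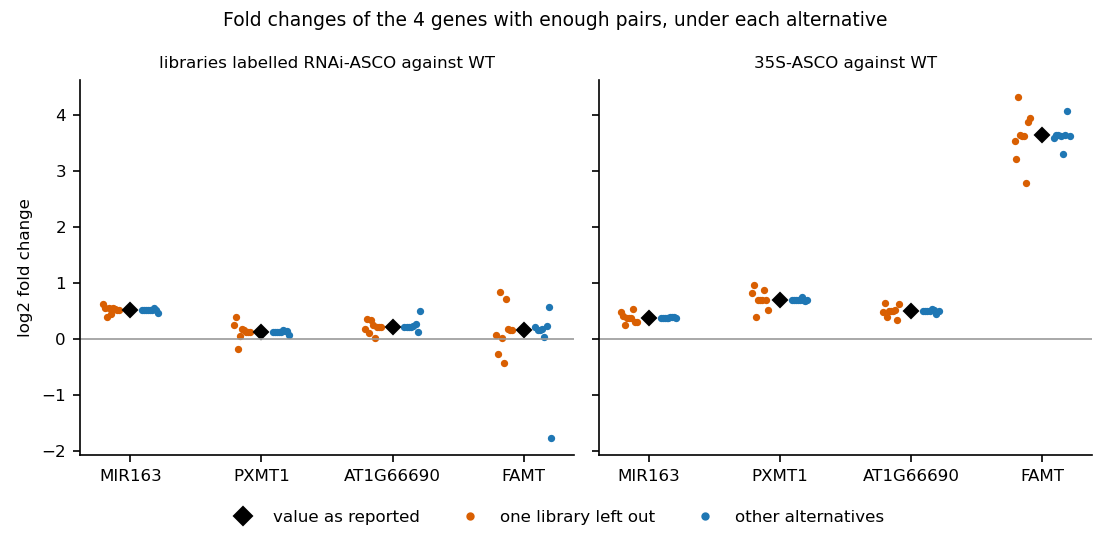
Log2 fold change against WT of the 4 genes with enough pairs, as reported (diamonds), with one library left out (orange) and under the other alternatives (blue). The FAMT value in 35S-ASCO stays between 2.78 and 4.31, and its value in the RNAi-labelled libraries lies on both sides of 0.

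Over the 9 libraries Pearson's r of log2 CPM was 0.63 between MIR163 and PXMT1 (Spearman's rho 0.22), 0.54 between PXMT1 and AT1G66690 (rho 0.55) and 0.02 between MIR163 and FAMT (rho 0.15). The libraries are shared by all pairs and only 9, so these are descriptions. Within 35S-ASCO, replicate 1 was the highest of the group for FAMT and the lowest for both MIR163 and PXMT1. WT replicate 3 was the lowest of its group for MIR163, PXMT1 and AT1G66690 and the highest for FAMT. The RNAi-labelled group differed from both: its replicate 2 was the highest for MIR163 and also for FAMT, and the lowest for PXMT1.

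The 4 genes had different nearest neighbours in pattern over the 9 libraries. By Pearson's r on log2 CPM among 22715 other genes, MIR163 was nearest to PHT1;4 (r = 0.99), a phosphate transporter gene, AT5G12110 (0.95) and AT2G42350 (0.94). PXMT1 was nearest to NAC003 (0.99), a NAC transcription factor gene, AT3G55790 (0.985) and AT1G26410 (0.976). AT1G66690 was nearest to the noncoding RNA gene AT4G12917 (0.96), AT3G52700 (0.95) and AT4G10330 (0.95). FAMT was nearest to P5CS1 (0.96), which encodes an enzyme of proline synthesis, AT1G75230 (0.96) and NAC019 (0.96), a transcription factor gene of stress responses. NAC019 stood at 1.41 CPM in WT, 1.26 in the RNAi-labelled libraries and 4.19 in 35S-ASCO, where it ranged from 2.78 to 6.92. It was picked for its likeness to FAMT over the same libraries, so its higher level in 35S-ASCO follows from that choice. With 9 points, high values of r arise among many genes: 87 genes reached 0.9 with PXMT1 and 36 with FAMT.

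The rest of the SABATH family gives the setting for FAMT. Of the other 19 genes, 13 had enough pairs; the 6 without were AT2G14060, BSMT1, AT3G44840, GAMT1, AT5G04380 and AT5G66430, with 3 to 85 pairs in all libraries together. In 35S-ASCO against WT none of the 13 passed the edgeR threshold (3 at unadjusted p under 0.05, 1 with DESeq2), and their median log2 fold change was -0.01, as against -0.01 over all genes tested. In the RNAi-labelled group relative to WT, where 11.8% of all genes passed, 1 of the 13 was higher and 2 were lower, with a median of -0.15 against -0.01. In 35S-ASCO against the RNAi-labelled libraries, where 3.2% of all genes were higher and 3.55% lower, 3 were higher and 0 lower, with a median of 0.37 against 0.00.

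NAMT1 (AT5G04370), which encodes a nicotinate methyltransferase, fell in the RNAi-labelled libraries from 5.84 ± 0.507 to 3.19 ± 0.426 CPM (SD, n = 3). Its log2 fold change was -0.89 (edgeR adjusted p = 0.00452), a call that held whichever of the 9 libraries was left out. NAMT1 in 35S-ASCO stood at 5.52 ± 0.794 CPM. AT3G21950 was higher in the RNAi-labelled libraries (13.5 ± 0.504 against 10.6 ± 1.21 CPM in WT, edgeR adjusted p = 0.0382). That call was lost without WT replicate 1 (log2 fold change 0.27) or 3 (0.35) and without any one of the RNAi-ASCO replicates 1, 2 and 3 (0.32, 0.34 and 0.38). It was also lost with only the 6 libraries compared (0.345) and with thinned counts (0.335). IAMT1 (AT5G55250), the gene for the methyltransferase of the auxin indole acetic acid, was the other one lower there, at 3.84 ± 0.297 against 5.26 ± 0.548 CPM (edgeR adjusted p = 0.0384). That call was lost without WT replicate 1 (-0.51), 2 (-0.47) or 3 (-0.37) and without RNAi-ASCO replicate 1 (-0.42) or 2 (-0.42), and the gene was named after its value was seen. The IAMT1 call was also lost with only the 6 libraries compared (-0.45). With both libraries labelled 4 days left out, 1 RNAi-labelled library remains, which is assumed to vary like the other groups, and the calls over all genes fell from 2677 to 103. These 3 calls were lost there too, with log2 fold changes of -1.004 for NAMT1, 0.29 for AT3G21950 and -0.34 for IAMT1.

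The 3 most abundant of the other genes were AT5G37990, AT1G15125 and AT5G38020. AT5G37990 stood at 181 ± 33.6 CPM in WT, 186 ± 9.49 in the RNAi-labelled libraries and 252 ± 17.2 in 35S-ASCO, and AT5G38020 at 102 ± 26.7, 77.9 ± 3.80 and 134 ± 13.4 CPM. Both differed between 35S-ASCO and the RNAi-labelled libraries (edgeR adjusted p = 0.0493 and 0.0199) and neither passed against WT. For AT5G37990 the log2 fold changes of 35S-ASCO were alike, at 0.44 against the RNAi-labelled libraries and 0.48 against WT (edgeR adjusted p = 0.0697). AT1G15125 stood at 85.3 ± 22.4, 103 ± 46.1 and 73.1 ± 17.7 CPM and passed in no comparison. The jasmonate methyltransferase gene JMT, at 0.571 ± 0.359, 0.508 ± 0.0825 and 0.370 ± 0.0503 CPM, did not pass either.

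**Figure D4:**
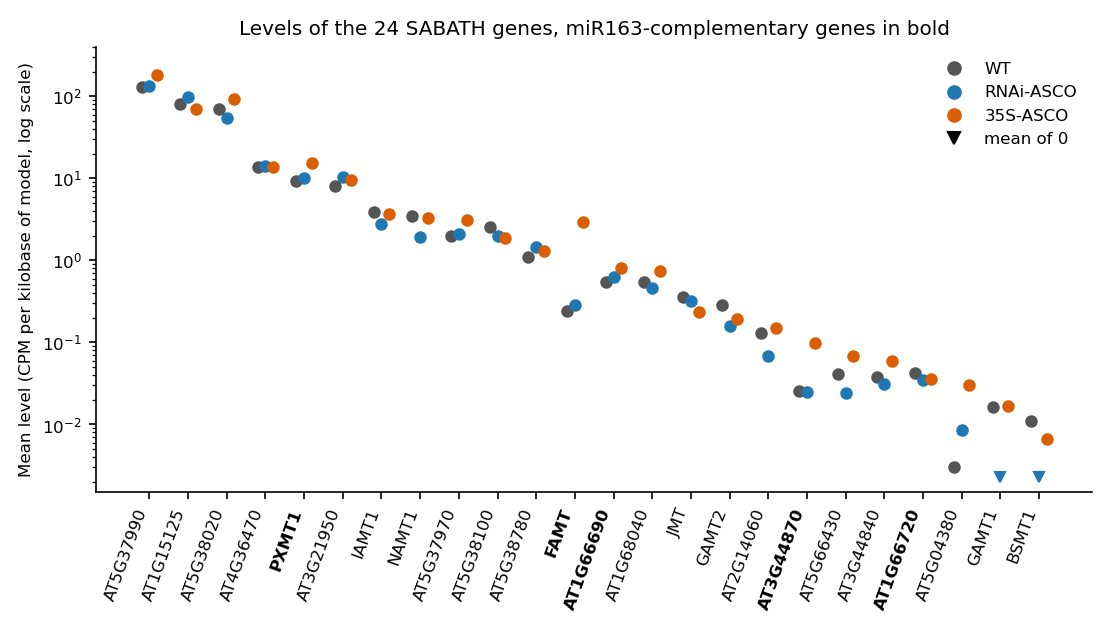
Mean level of the 24 SABATH genes in each genotype in CPM per kilobase of gene model on a log scale (n = 3 libraries per point), ordered by the mean over all libraries, with the genes complementary to miR163 in bold and triangles at the lower edge for a mean of 0. FAMT has a mean of 2.92 in 35S-ASCO, 0.241 in WT and 0.283 in the RNAi-labelled group.

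Primary transcripts of other microRNAs give the setting for MIR163. Of 177 other annotated MIR genes in the files, 43 had enough pairs. In 35S-ASCO against WT none of the 43 passed (edgeR; 1 at unadjusted p under 0.05, 0 with DESeq2), with a median log2 fold change of 0.03. In the RNAi-labelled group relative to WT, where 11.8% of all genes passed, 3 were higher and 1 lower, with a median of -0.27 against -0.01 over all genes, and 16 of the 43 had a positive value. Between the transgenic groups, where 6.75% of all genes passed, 0 were higher and 2 lower in 35S-ASCO, with a median of 0.24 against 0.00. MIR850 rose in the RNAi-labelled group relative to WT from 7.395 ± 0.384 to 11.0 ± 0.871 CPM (SD, n = 3; log2 fold change 0.58, edgeR adjusted p = 0.00372), a call that held in all 9 fits that left out one library. MIR775 rose in the same comparison from 0.215 ± 0.0389 to 0.610 ± 0.212 CPM (a log2 change of 1.56, edgeR adjusted p = 0.0165), a call lost without WT replicate 2 (1.42), RNAi-ASCO replicate 1 (1.49) or RNAi-ASCO replicate 3 (1.32).

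MIR447a was also higher in the RNAi-labelled libraries, at 1.14 ± 0.129 against 0.647 ± 0.102 CPM in WT (edgeR adjusted p = 0.0363), and lost the call in 7 of 9 fits that left out one library. Of those 9, only the fits without WT replicate 2 and 35S-ASCO replicate 1 kept it. The call was also lost with only the 6 libraries compared and with the replicate block (log2 fold change 0.79 in both). MIR167d, a source of the miR167 that targets auxin response factor genes, fell there by 1.01 on the log2 scale (edgeR adjusted p = 0.0313), with 10.2 ± 1.49 CPM in WT and 5.07 ± 1.05 CPM in that group. The decrease lost the call without WT replicate 1 (-1.11), 2 (-0.91) or 3 (-1.001), and without RNAi-ASCO replicate 1 (-0.87) or 2 (-1.02). With 1 RNAi-labelled library left, without the pair labelled 4 days, all 4 calls were lost, and the log2 fold changes were 0.54 for MIR850, 1.90 for MIR775, 0.76 for MIR447a and -0.77 for MIR167d.

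Genes for making and handling microRNAs were examined as a list. Of 12 such genes, among them DCL1, the enzyme that cuts precursors, SE and HYL1, its partners, HEN1, which methylates microRNA ends, and AGO1, the main Argonaute, 0 passed the edgeR threshold in any comparison. Over all genes tested, 11.8% passed it in the RNAi-labelled group and 1.67% in 35S-ASCO, each compared with WT, and 6.75% between the transgenic groups. With 12 genes and such shares, nothing is read from 0 calls. At unadjusted p under 0.05, 3 passed for the RNAi-labelled group and 0 for 35S-ASCO, each compared with WT, and 1 between the transgenic groups. DESeq2 called 0, 0 and 1 in the same order. DCL1 stood at 61.0 ± 6.80 CPM in WT, 66.1 ± 0.681 in the RNAi-labelled libraries and 64.6 ± 2.73 in 35S-ASCO. The list medians of the log2 fold change were -0.06, -0.01 and 0.01 in these comparisons.

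The methyl donor of SABATH enzymes comes from the S-adenosylmethionine cycle. Of its 10 listed genes, 0 passed in edgeR in 35S-ASCO against WT, where 1.67% of all genes did. At unadjusted p under 0.05 1 passed there, and 0 with DESeq2. In the RNAi-labelled group relative to WT, where 11.8% of all genes passed, 1 of the 10 was higher in edgeR. The 1 was MS2, a methionine synthase gene, which rose from 180 ± 11.7 to 247 ± 15.9 CPM (SD, n = 3; log2 fold change 0.46, edgeR adjusted p = 0.00332), a call that held in all 9 fits that left out one library. Between the transgenic groups, where 6.75% of all genes passed, 0 passed in edgeR, 2 at unadjusted p under 0.05 and 2 with DESeq2. The list medians were -0.03 and -0.03 relative to WT. Without the pair labelled 4 days MS2 was not called (0.37). SAM1, the gene of a synthetase of S-adenosylmethionine, stood at 520 ± 27.5, 480 ± 5.91 and 509 ± 21.95 CPM in WT, the RNAi-labelled libraries and 35S-ASCO.

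Genes beside the 2 clusters were examined to see whether the difference of FAMT extended to its surroundings. Of the 13 genes between or within 3 places of the clusters, 10 had enough pairs. In 35S-ASCO against WT, where 1.67% of all genes passed, 0 of the 10 passed in edgeR. At unadjusted p under 0.05 0 did, and 0 did with DESeq2. Next to FAMT and AT3G44870, AT3G44850 stood at 13.4 ± 0.467 CPM in WT and 13.5 ± 0.394 CPM in 35S-ASCO. ACD1, which acts in chlorophyll breakdown, stood at 53.0 ± 0.648 CPM in WT and 57.5 ± 1.67 CPM in 35S-ASCO. The other tested genes on that side were RPL9 and CHX4. Their log2 fold changes in 35S-ASCO against WT were -0.10 and -0.28, and neither passed in edgeR. ACD1 rose in the RNAi-labelled libraries to 62.3 ± 4.02 CPM, by 0.23 on the log2 scale (edgeR adjusted p = 0.0248), a call lost without WT replicate 1 (0.22) or 3 (0.23) and without RNAi-ASCO replicate 1 (0.20), 2 (0.21) or both (0.12). Relative to WT the medians over the 10 were -0.03 in the RNAi-labelled group, where 1 passed (11.8% of all genes did), and 0.01 in 35S-ASCO. Between the transgenic groups, where 6.75% of all genes passed, 0 passed in edgeR, 2 at unadjusted p under 0.05 and 0 with DESeq2. LIG6, which starts 284 bases after the MIR163 precursor on the same strand, stood at 40.8 ± 1.39, 43.7 ± 1.25 and 41.9 ± 1.42 CPM in the 3 genotypes.

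The promoters, from 250 bases before to 50 after each annotated gene start, were searched on both strands for the W-box core TTGAC, the G-box CACGTG and the GCC-box GCCGCC. The FAMT promoter held TTGAC 3 times; 4.9% of the 27437 promoters of protein-coding genes held 3 or more copies. PXMT1, AT1G66690 and AT3G44870 held it once, as 50.5% of promoters did at least once, and AT1G66720 and MIR163 not at all. None of the 6 held CACGTG (7.7% of promoters) or GCCGCC (2.6%). For MIR163 the annotated start is that of the 331-base precursor. The counted model of MIR163 is 629 bases long, so that window may lie within the transcript. The matches describe the sequence of the windows only.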

How the data were processed

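Per the file headers, the authors counted single reads and read pairs per gene model with sam2pkm. Counted pairs were properly paired on a single model in reversed orientation, and reads with equally good alignments were removed. The submitters' processing notes name TopHat2, Bowtie2 and TAIR10, and per the labels' protocols libraries were stranded and poly(A)-selected. The deposited pair counts were used as raw counts, and the deposited length of each gene model, the other value in the files, served to express levels per kilobase. Between 86.83% and 92.8% of parsed pairs were counted per library.

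Genotypes were compared in R 4.3.3 by the quasi-likelihood test of edgeR 4.0.16 (TMM scaling, filterByExpr, genotype as the only factor, all 9 libraries), with Benjamini-Hochberg adjustment over the 22719 genes kept and a threshold of 0.05. The fit was tested on simulated data. Standard errors come from the F statistic. Correlations used log2 CPM (prior count 2). Libraries of the same genotype differed by at least 8.46 times the sampling variance, and none was merged. Floors (3 pairs) cover counting error only, while SDs and standard errors include variation between libraries.

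Gene names, positions and sequences are from the RefSeq annotation and sequence of TAIR10.1, which held 97.7% of the identifiers; the precursor was searched with blastn 2.17.0. The members and lists were chosen with earlier results of these data known. Named genes are the 6 members, AT1G67105, for each fitted member the 3 genes with the highest Pearson's r, from each list up to 4 genes past the threshold by smallest p, and the 3 most abundant other SABATH genes. JMT, IAMT1, DCL1, SAM1, AT3G44850, RPL9, CHX4 and LIG6 were added as examples after their values were seen. Alternatives were DESeq2 1.42.0, RLE scaling, 2 other filters, the 6 libraries compared, a replicate block, single-read counts, thinned counts, and leaving out libraries.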

Additional observations from a re-analysis of the deposited data

Results flagged for a closer look

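Differences between the transgenic groups passed the direct test (edgeR, adjusted p under 0.05) for 5 of the named list genes, and none of the 5 passed when 35S-ASCO was compared with WT. For AT5G37990 only the threshold separates the 2 comparisons. Its log2 fold change in 35S-ASCO against WT was 0.48 (edgeR adjusted p = 0.0697), no smaller than between the transgenic groups. All other log2 fold changes here are those of 35S-ASCO over the RNAi-labelled group. Without the pair labelled 4 days 1 RNAi-labelled library is left and all 5 calls were lost; the values were then 0.93 for NAMT1, 0.83 for AT5G38020, 0.44 for AT5G37990, -0.38 for MIR850 and -0.98 for MIR447a. NAMT1 (AT5G04370) stood at 0.81 (edgeR adjusted p = 0.00986), a call also lost without RNAi-ASCO replicate 2 (0.76). AT5G38020 stood at 0.78 (edgeR adjusted p = 0.0199), lost without RNAi-ASCO replicate 1 (0.82), 2 (0.77) or 3 (0.76) or 35S-ASCO replicate 2 (0.83). AT5G37990 stood at 0.44 (edgeR adjusted p = 0.0493), lost in 7 of the 9 leave-one-out fits and kept without WT replicate 2 or 3; it was also lost with the replicate block, single-read counts, thinned counts and the 1 CPM filter (0.43 to 0.44). MIR850 stood at -0.42 (edgeR adjusted p = 0.0194), lost without RNAi-ASCO replicate 2 (-0.35) or 35S-ASCO replicate 2 or 3 (-0.39 in both) and with thinned counts (-0.41). MIR447a stood at -1.02 (edgeR adjusted p = 0.0184), lost without RNAi-ASCO replicate 1 (-0.93) or 2 (-1.09) or 35S-ASCO replicate 2 (-0.998) or 3 (-0.96) and with thinned counts (-0.90).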

How the results depend on the processing

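Log2 fold changes of the 4 fitted genes moved by less than 1 SD of log2 CPM within groups under the alternatives of method. The fit without the 2 libraries labelled 4 days was the exception. Leaving out 1 of 3 libraries can hardly shift a group mean by more than that SD. The criterion therefore says nothing about the fits with one library left out. In those fits FAMT in 35S-ASCO against WT ran from 2.78 to 4.31. In RNAi-ASCO against WT PXMT1 ran from -0.18 to 0.39 and FAMT from -0.43 to 0.84, across 0. Without the libraries labelled 4 days AT1G66690 stood at 0.50 in RNAi-ASCO against WT and 0.003 in 35S-ASCO against RNAi-ASCO, and FAMT at -1.76 and 5.38. The filter of at least 1 CPM in 5 libraries removed FAMT and AT1G66690, so it gave no value for them. Genes called in RNAi-ASCO against WT numbered 2677, 103 without the libraries labelled 4 days, and 995 to 3024 with one library left out. In 35S-ASCO against WT they numbered 379, 1315 with DESeq2, 64 with only the 6 libraries compared, 64 without the libraries labelled 4 days, and 25 to 611 with one library left out. Between the lines they numbered 1534, 80 without the libraries labelled 4 days, and 432 to 1928 with one left out. Calls in the 5 lists together numbered 9, 0 and 5 in the 3 comparisons. They became 0 without the libraries labelled 4 days in the first and 3 to 10 with one library left out. In the second they were 1 with DESeq2 and 0 to 2 with one left out. In the third they were 10 with DESeq2, 9 with only the 6 libraries, 2 with thinned counts, 0 without the libraries labelled 4 days and 0 to 8 with one left out. Fits with fewer libraries have fewer degrees of freedom; for the others the cause was not tested. The replicate numbers share no more than a name (correlations of deviations between -0.023 and 0.076; 6 of 18 checks matched a library best with its own number). With the replicate block the counts were 2438, 342 and 1355, and FAMT in 35S-ASCO against WT was 3.29.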
